A study of Mus musculus with 71 samples.

Results

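The LIM-homeobox genes Lhx1, Lhx2, Lhx3, Lhx4, Lhx5, Lhx6, Lhx8, Lhx9, Isl1 and Isl2 were followed in mouse embryonic stem (ES) cells with and without the catalytic subunits of Polycomb repressive complex 2 (PRC2). The genes were chosen by symbol, and all 10 were found among the 24222 genes of the count files. 5 of them (Lhx2, Lhx6, Lhx8, Isl1 and Isl2) passed the filter on low counts and were tested. The other 5 (Lhx1, Lhx3, Lhx4, Lhx5 and Lhx9) did not pass and are given as counts.

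LIM-homeobox genes encode transcription factors that carry a pair of zinc-binding LIM domains ahead of a DNA-binding homeodomain. The LIM domains recruit the cofactor LDB1, which joins LIM proteins into larger complexes, while LIM-only (LMO) proteins lack a homeodomain and compete for the same cofactor. The family specifies neuron types, heart progenitors, pituitary, eye, limb and gonad, and its members fall into close pairs: Lhx1 with Lhx5, Lhx2 with Lhx9, Lhx3 with Lhx4, Lhx6 with Lhx8, and Isl1 with Isl2. In ES cells such developmental regulators are known as targets of PRC2, whose alternative methyltransferases Ezh1 and Ezh2 methylate histone H3 at lysine 27, and Suz12 is the scaffold subunit of the complex.

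RNA was sequenced from C57BL/6 ES cells on gelatin in 2i, a medium that keeps ES cells in the naive state, in 3 groups of 3 libraries each. WT cells had both methyltransferases, Ezh1/Ezh2 dKO cells (dKO) were labelled as lacking both, and EZH2 rescue cells (rescue) as lacking both and carrying wild-type EZH2 again. The sources used here do not give how EZH2 was put back or whether each line is a single clone. The Suz12 peaks are a list deposited with 1 wild-type ChIP sample of another strain background, 129B6F1, and are a description with no replicate.

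Libraries held 12457622 to 36009529 counts. With 3 counts as the limit, a gene with 0 counts could still be at 0.0833 CPM (counts scaled to 1000000 per library) in the deepest library or at 0.241 CPM in the one with fewest counts, which covers counting error alone. The label check on Ezh1 gave 47.9 to 53.4 CPM in WT, 1.8 to 2.34 in dKO and 2.33 to 3.42 in rescue, and Ezh2 was at 308 to 314, 191 to 214 and 549 to 576 CPM. Gene-level counts do not show a deleted exon and do not separate introduced from native EZH2, so Ezh2 checks the labels in part. All 6 ES cell markers, such as Pou5f1 and Nanog, were above 1 CPM in each group, and their sum was 5498 to 5654 CPM in WT, 4681 to 4896 in dKO and 6442 to 6480 in rescue. In dKO against WT 5 of the 6 fell, 0 rose and 1 was not called (median log2 fold change -0.33). Over all tested genes 31.0% fell there. In rescue against WT 4 rose, against 26.8% of all tested genes, and Sox2 fell. Sox2 was at 733, 508 and 465 CPM on average in WT, dKO and rescue. The library dKO replicate 3 stood apart from the other 2 dKO libraries on the second principal component (12.3 against -7.46 and -6.42). Without it the 5 tested genes had log2 fold changes over WT of 2.18 (Lhx2), 1.36 (Lhx6), 3.98 (Lhx8), 2.87 (Isl1) and 5.93 (Isl2), close to the values with it below.

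In wild-type cells Suz12 lay on every one of these genes. A peak was counted at a gene when it reached within 1 kb of an annotated start site, or of either end of the gene for Lhx5, whose start site was not listed. By that rule 10 of 10 genes had a peak, against 4544 of 20493 placed protein-coding genes (22.2%). The start site itself was inside a peak for all listed starts of Lhx1, Lhx2, Lhx3, Lhx4, Lhx6, Lhx8, Isl1 and Isl2. The listed start of Lhx9 lay 494 bp from the nearest peak.

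The peaks differed widely in extent within the family. Lhx1 (chromosome 11, 84517975 to 84525534 on mm10) lay inside a single peak of 12879 bp, number 6 by width among all 7480 peaks, whose median width was 1032 bp. A broad single peak also lay over most of Lhx5 (chromosome 5, 120431886 to 120441457) with 9928 bp and of Isl2 (chromosome 9, 55538677 to 55547667) with 7739 bp. Further peaks of 2113 and 1574 bp lay outside Lhx5. At Lhx4 (chromosome 1, 155698031 to 155751726) and Lhx8 (chromosome 3, 154306288 to 154330560) a single peak, of 8637 and 8580 bp, lay over the start and part of the gene. Lhx2 (chromosome 2, 38339271 to 38369737) carried 4 separate peaks within the gene, of 1384, 2523, 2799 and 3592 bp, and a peak of 1678 bp upstream. Lhx6 (chromosome 2, 36081950 to 36105992) had a peak of 3998 bp over its 3 listed starts and 3 smaller ones of 741 to 1297 bp inside the gene.

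The fewest bases in peaks were at Isl1, Lhx3 and Lhx9. Isl1 (chromosome 13, 116298270 to 116309688) had 2430 bp over its start, and peaks of 1485 bp and 930 bp outside the gene. Lhx3 (chromosome 2, 26200212 to 26208249) had peaks of 548 and 651 bp at its starts and 2127 bp further into the gene. Lhx9 (chromosome 1, 138825186 to 138848839) had 750 bp past its listed start and 3995 bp across the upstream end of the gene. Counted over the gene and 1 kb on either side, peaks held 2430 bases at Isl1 and 10298 at Lhx2, the lowest and highest of the family, more than at 95.3% and 99.8% of the 20493 genes. So the gene with the least Suz12 coverage here still ranked high among all genes. The 3 genes with the broadest peaks, Lhx1, Lhx5 and Lhx4, are among those whose RNA stayed under the filter, which is a description with no test. Lhx8 and Isl2, next by width with 8580 and 7739 bp, passed the filter. Lhx3 and Lhx9, whose widest peaks were 2127 and 3995 bp, did not, so peak width and passing the filter did not go together throughout.

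**Figure D1:**
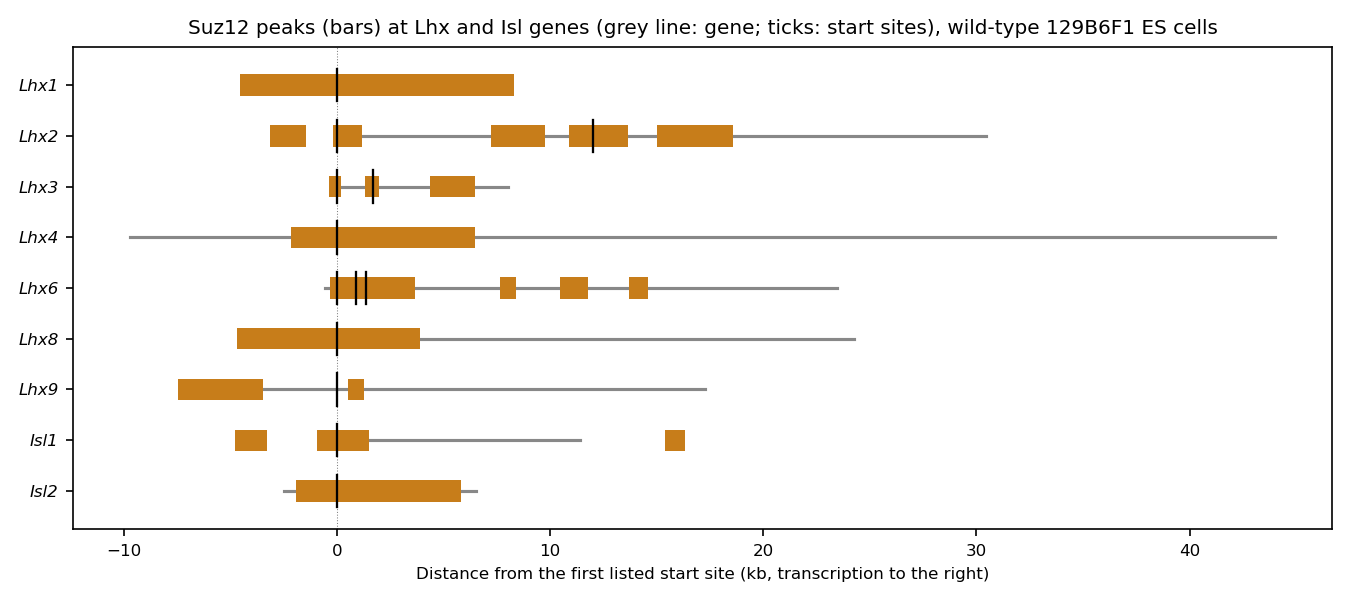
Suz12 peaks (bars) at the 9 genes with a listed start site, against the distance in kb from the first listed start, with transcription to the right, the gene as a grey line and start sites as black ticks. A single bar spans the start of Lhx1 (12879 bp), Lhx4 (8637 bp), Lhx8 (8580 bp) and Isl2 (7739 bp), whereas Lhx2 and Lhx3 carry several separate bars.

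The promoters of these genes ranged from CpG-dense to CpG-poor. The 250 bases before the start are shown for the 5 tested genes, because they differ in the CG dinucleotides that mark CpG islands, with which PRC2 in ES cells is known to be associated. They are from RefSeq on GRCm38.p6 (the assembly behind mm10), read 5′ to 3′ on the gene's strand, with CG in capitals. Of the 10 genes, 9 matched a promoter entry.
Isl1, chr13:116309689-116309938, minus strand: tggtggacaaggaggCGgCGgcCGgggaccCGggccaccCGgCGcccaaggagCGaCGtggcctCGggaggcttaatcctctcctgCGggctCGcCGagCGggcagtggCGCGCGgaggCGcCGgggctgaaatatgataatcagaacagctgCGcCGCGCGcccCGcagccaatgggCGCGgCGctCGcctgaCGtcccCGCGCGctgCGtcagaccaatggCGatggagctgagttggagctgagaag
Isl2, chr9:55540899-55541148, plus strand: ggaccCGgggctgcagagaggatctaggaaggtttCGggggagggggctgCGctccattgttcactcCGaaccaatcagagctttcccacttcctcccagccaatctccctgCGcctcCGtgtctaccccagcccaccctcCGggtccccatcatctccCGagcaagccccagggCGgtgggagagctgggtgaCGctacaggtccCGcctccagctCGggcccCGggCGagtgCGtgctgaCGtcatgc
Lhx2 (first start), chr2:38339031-38339280, plus strand: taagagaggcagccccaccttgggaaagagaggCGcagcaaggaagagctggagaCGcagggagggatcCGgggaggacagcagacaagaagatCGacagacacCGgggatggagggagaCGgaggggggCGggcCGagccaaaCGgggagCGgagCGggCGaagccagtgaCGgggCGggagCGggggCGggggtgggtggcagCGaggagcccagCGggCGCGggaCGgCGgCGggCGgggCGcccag
Lhx6 (first start), chr2:36105409-36105658, minus strand: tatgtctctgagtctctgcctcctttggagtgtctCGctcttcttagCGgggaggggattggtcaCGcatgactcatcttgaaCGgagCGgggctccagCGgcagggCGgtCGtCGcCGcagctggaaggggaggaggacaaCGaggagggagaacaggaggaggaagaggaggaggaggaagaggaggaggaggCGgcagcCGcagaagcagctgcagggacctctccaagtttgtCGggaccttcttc
Lhx8, chr3:154330561-154330810, minus strand: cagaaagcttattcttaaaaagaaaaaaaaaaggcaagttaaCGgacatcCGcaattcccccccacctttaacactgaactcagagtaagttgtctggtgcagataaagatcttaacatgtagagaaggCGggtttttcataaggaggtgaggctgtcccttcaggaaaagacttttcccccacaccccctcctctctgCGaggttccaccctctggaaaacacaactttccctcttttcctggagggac

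The printed stretches held 33 CG at Isl1, 25 at Lhx2, 16 at Isl2, 14 at Lhx6 and 4 at Lhx8. Over the full window of 300 bases (250 before and 50 after the start), Isl1 had 37 CG, more than 94.4% of the 32851 listed promoters, whose median was 7. The Lhx8 window had 4, more than 31.4% of them, although the peak over that start was 8580 bp wide. The other windows lay between, with 34 and 29 at the starts of Lhx2, 31 at Lhx1, 28 and 13 at Lhx3, 23 at Isl2, 19 at Lhx4, 11 to 17 at Lhx6 and 6 at Lhx9. The letters TAATTA, a core that many homeodomains bind, read the same on both strands and were in none of these windows, against 5.29% of all listed promoters. That says no more than that these letters are not in these 300 bases.

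Comparing dKO with WT asks which of these genes differ when the cells lack both methyltransferases. All 5 tested genes rose. Their median log2 fold change was 2.88, and that of all 14145 tested genes was -0.00. Of all tested genes 33.7% rose and 31.0% fell, and 34.8% had every dKO library above every WT library, as these 5 did. In bulk RNA, more cells that express a gene and more RNA per cell cannot be told apart. Lhx8 and Isl2 passed the filter through dKO alone, where all 3 libraries exceeded 0.45 CPM and no WT or rescue library did. They could therefore enter the test by being high in dKO, and the count of 5 is not evidence about the family of 10.

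Isl1, which marks second heart field progenitors and is needed for motor neurons, had 16, 33 and 23 counts in WT, or 1.1, 1.54 and 1.19 CPM. In dKO it had 122, 231 and 240 counts, or 9.19, 9.86 and 9.58 CPM. Every dKO library was far above every WT library. Isl1 rose by 2.88 ± 0.152 (log2 fold change, SE, 7.36-fold), with an edgeR Benjamini-Hochberg adjusted p = 1.77e-08. The 33 tested genes within 5 Mb had a median of -0.28.

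Isl2, its close relative in motor neurons and retinal ganglion cells, was almost silent in WT, with 1, 0 and 2 counts. In dKO it had 54, 79 and 87 counts, or 4.07, 3.37 and 3.47 CPM, so every dKO library was well above every WT library. Summed over the libraries, 220 counts stood against 3, a ratio of 65.7 with an exact 95% interval of 22.2 to 321 for counting error. Isl2 rose with an edgeR Benjamini-Hochberg adjusted p = 1.73e-07. The size rests on single reads in WT: without WT replicate 3 the ratio was 128 (22.8 to 5083.9) and without WT replicate 2 it was 40.3 (13.6 to 197).

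Lhx2, a regulator of eye and cortex and of hair follicle stem cells, was at 1.79, 2.33 and 1.8 CPM in WT and 8.97, 9.17 and 7.51 CPM in dKO. The ranges did not overlap, and the lowest dKO value was that of replicate 3. Lhx2 rose by 2.09 ± 0.167 on the log2 scale (4.26-fold), with an edgeR Benjamini-Hochberg adjusted p = 5.17e-07. An unstranded library cannot separate Lhx2 from the lncRNAs Gm27197 and Gm13584 that lie within it and are not rows of the count files.

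Lhx6, which specifies cortical interneurons, had the smallest log2 fold change of the 5. It was at 0.964, 0.653 and 1.24 CPM in WT and 2.34, 2.47 and 2.44 CPM in dKO, a tight group above all WT libraries. The log2 fold change was 1.36 ± 0.224 (2.56-fold), with an edgeR Benjamini-Hochberg adjusted p = 0.000207.

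Lhx8, the partner of Lhx6 that acts in forebrain cholinergic neurons and in oocytes, had 0, 0 and 2 counts in WT and 11, 13 and 15 in dKO. No dKO library was as low as any WT library. The ratio of summed counts was 17.5 (exact 95% interval 4.53 to 149, counting error), and Lhx8 rose with an edgeR Benjamini-Hochberg adjusted p = 0.000304. Both WT reads were in WT replicate 3. Without that library the summed counts were 39 against 0, a ratio of 7.57 when 3 summed WT counts are taken as the limit. That ratio leaves out counting error in the 39, so it is not an exact lower bound. Without WT replicate 2 the ratio was 10.7 (2.77 to 91.5).

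**Figure D2:**
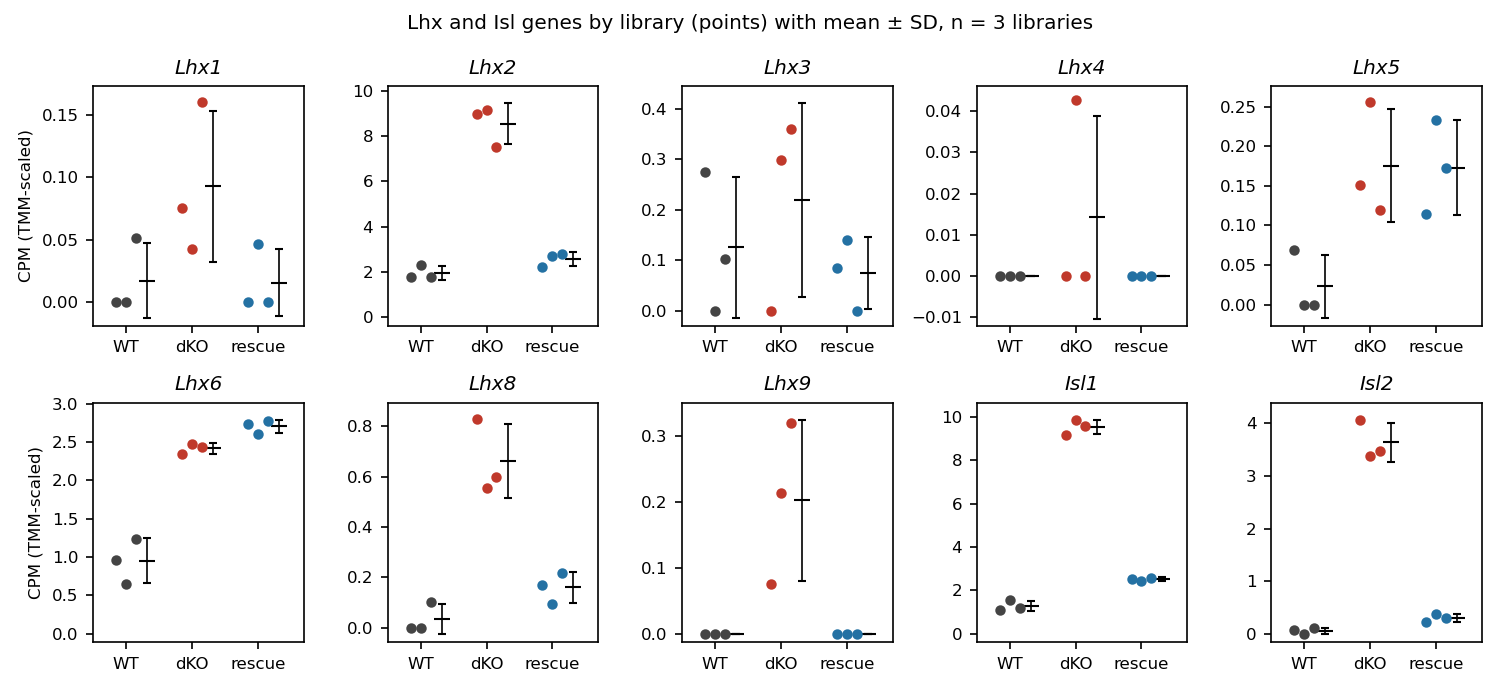
Level of each of the 10 genes in CPM scaled by TMM, with 1 point per library, 3 libraries per group, and the mean ± SD beside each group, where the axis differs between genes. Isl1, Isl2, Lhx2 and Lhx8 are highest in dKO and low again in rescue, Lhx6 is at 2.34 to 2.77 CPM in dKO and rescue alike, and the 5 untested genes reach 0.359 CPM at most.

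The members that did not pass the filter were close to the limit of detection. Lhx9, which is needed for the gonad to form, had 0 counts in all 6 WT and rescue libraries and 1, 5 and 8 in dKO. Its 14 summed counts in dKO gave ratios of 4.18 over WT and 6.01 over rescue, taking 3 summed counts as the limit. These ratios leave out counting error in the 14, so they are not exact lower bounds. Lhx2, the partner of Lhx9, was by contrast readily counted in all 9 libraries.

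Lhx5, a regulator of the developing forebrain and hippocampus, had 1, 0 and 0 counts in WT. The dKO libraries held 2, 6 and 3 and the rescue libraries 4, 5 and 4, overlapping each other and lying above WT. The ratio of rescue to dKO was 0.918 (exact 95% interval 0.379 to 2.26, counting error), and the ratio of rescue to WT was 9.05 (1.36 to 385). Lhx1, its close relative, acts in head and kidney formation. Lhx1 had 1 count in WT, 6 in dKO and 1 in rescue, a dKO to WT ratio of 5.38 whose interval, 0.653 to 247, includes 1. The neighbouring lncRNA Lhx1os had 0 counts in every library.

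Lhx3 and Lhx4, which act together in pituitary and motor neurons, stayed near 0. For Lhx3 the WT libraries held 4, 0 and 2 counts, the dKO libraries 0, 7 and 9 and the rescue libraries 3, 3 and 0, and all groups overlapped. Lhx4 had a single count in the whole series, in dKO replicate 2. The summed counts of Lhx3 gave a dKO to WT ratio of 2.39 (exact 95% interval 0.889 to 7.46, counting error) and a rescue to dKO ratio of 0.291 (0.0933 to 0.783). The second interval excludes 1 for counting error alone, which leaves out the spread between libraries. Without the filter, edgeR did not call Lhx3 in rescue against dKO (Benjamini-Hochberg adjusted p = 0.139). A change in Lhx4 was not detectable at this depth. With no filter at all, edgeR gave Benjamini-Hochberg adjusted p = 0.0072 for Lhx9 and 0.0269 for Lhx5 in dKO against WT, and did not call Lhx1 (0.187), Lhx3 (0.328) or Lhx4 (0.43).

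Comparing rescue with dKO asks how far the levels returned in cells with EZH2 put back. Of the 5 tested genes 4 fell, 0 rose and the remaining 1 missed the threshold. Their median log2 fold change was -1.92, and that of all tested genes -0.04. Of all tested genes 38.2% fell and 32.1% rose. This comparison shares the dKO libraries with the previous one, so a gene high in dKO by chance would move in each. Lhx8 and Isl2 passed the filter through dKO alone, so the way they entered the test favoured a fall in rescue. Both are among the 4 genes that fell and are part of the median, so that count is not evidence about the whole family.

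Isl1 fell to 2.54, 2.43 and 2.59 CPM in rescue, a log2 fold change of -1.92 ± 0.131 with an edgeR Benjamini-Hochberg adjusted p = 1.26e-07. Isl2 fell to 8, 8 and 7 counts, or 0.229, 0.374 and 0.303 CPM (-3.60 ± 0.282, edgeR Benjamini-Hochberg adjusted p = 3.76e-07). Both genes had rescue libraries far below the dKO libraries and close to each other. Lhx2 fell to 2.23, 2.71 and 2.81 CPM (-1.73 ± 0.154, edgeR Benjamini-Hochberg adjusted p = 1.04e-06). Lhx8 fell to 6, 2 and 5 counts (-1.93 ± 0.46, edgeR Benjamini-Hochberg adjusted p = 0.0025), or 0.171, 0.0934 and 0.216 CPM. For these 4 genes no rescue library reached the lowest dKO library, as for 38.5% of all tested genes.

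Lhx6 was the exception. Its rescue libraries, at 2.74, 2.61 and 2.77 CPM, were all above its dKO libraries, the highest of which was 2.47 CPM, as for 33.2% of all tested genes. The log2 fold change of 0.16 ± 0.184 was not called (edgeR Benjamini-Hochberg adjusted p = 0.445), and over the alternatives run the adjusted p was 0.282 to 0.564. Its partner Lhx8 was at 24.3% of its dKO level in rescue. The 88 tested genes within 5 Mb of Lhx6 had a median of -0.21.

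As a description, the part of the mean rise from WT to dKO that was left in rescue was 6.82% for Isl2 (4.79 to 8.83% over the rescue libraries), 9.24% for Lhx2 (3.86 to 12.7%), 15.1% for Isl1 (13.9 to 15.9%), 20.1% for Lhx8 (9.42 to 29%) and 120% for Lhx6 (114 to 124%). The range of Lhx2 overlapped those of Isl2 and Lhx8, and that of Lhx6 lay far above all others. These shares take the WT and dKO means as fixed and carry no error from them.

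**Figure D3:**
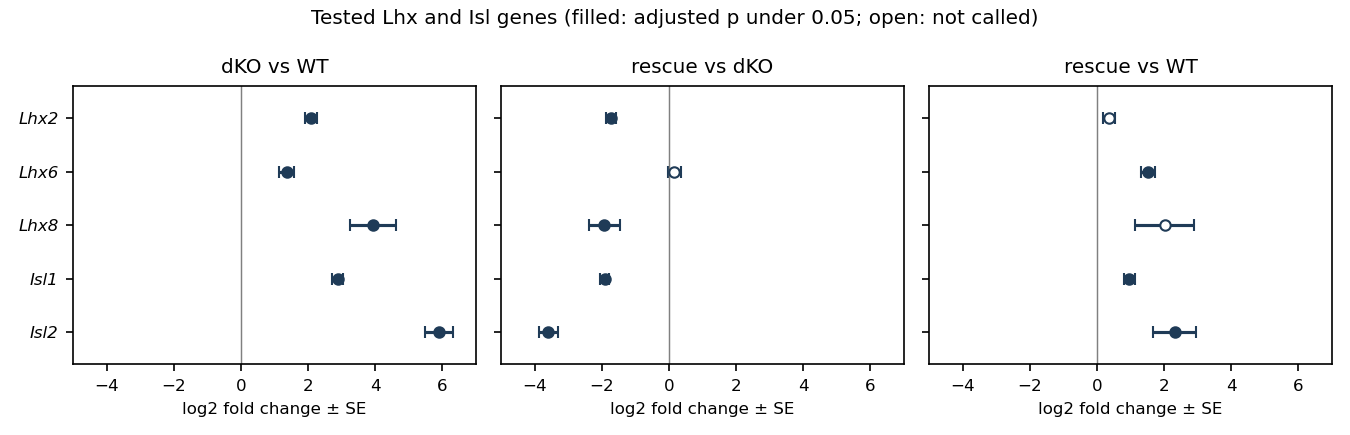
Log2 fold change ± SE of the 5 tested genes in the 3 comparisons, with filled points for an adjusted p under 0.05 and open points for genes that were not called. In dKO against WT all 5 are filled and right of 0 (1.36 to 5.91), in rescue against dKO Lhx6 is the open point at 0.16, and in rescue against WT Lhx2 and Lhx8 are open.

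Comparing rescue with WT asks what still differs. Of the 5 tested genes 3 rose, 2 missed the threshold and 0 fell. Their median log2 fold change was 1.52, and that of all tested genes 0.00. Of all tested genes 26.8% rose and 27.3% fell, and 32.8% had every rescue library above every WT library, as these 3 did. Lhx6 rose by 1.52 ± 0.216 (2.86-fold), with an edgeR Benjamini-Hochberg adjusted p = 0.000118. Isl1 rose by 0.96 ± 0.168 (1.95-fold), with an edgeR Benjamini-Hochberg adjusted p = 0.000513. Its 3 rescue libraries, from 2.43 CPM up, were all above the highest WT library at 1.54 CPM.

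Isl2 had 23 counts in rescue against 3 in WT, a ratio of 5.34 (exact 95% interval 1.61 to 27.8, counting error), and was called with an edgeR Benjamini-Hochberg adjusted p = 0.00927. Leaving out WT replicate 2 ended that call (0.0555, ratio 3.27), and without WT replicate 3 the ratio was 10.4. Lhx2 was at 1.28-fold of WT and was not called (0.36 ± 0.182, edgeR Benjamini-Hochberg adjusted p = 0.116), with rescue replicate 1 at 2.23 CPM below WT replicate 2 at 2.33. Lhx8, with 13 counts against 2 (ratio 4.52, 1.02 to 41.3), did not pass (edgeR Benjamini-Hochberg adjusted p = 0.0697). It passed without WT replicate 3 (0.0162), where WT has 0 counts, and with limma-voom (0.0248). The order of levels was therefore dKO, rescue, WT for Isl1 and Isl2 with no overlap between neighbours, and dKO above the other 2 groups, which overlapped, for Lhx2 and Lhx8. For Lhx6 it was rescue and dKO, which did not differ beyond the test, above WT.

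The 24 tested genes within 5 Mb of Lhx8 had a median log2 fold change in rescue of -0.48 against WT and -0.26 against dKO. Relative to these neighbours Lhx8 was at 2.49 over WT and -1.67 against dKO. For Isl2 the 106 neighbours were at -0.01 and -0.10, and its values relative to them were 2.32 and -3.50.

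The other LIM genes and the cofactors were read from a list of 12 genes, of which 10 were tested. In dKO against WT 6 of them rose, 2 fell and the other 2 missed the threshold, and their median log2 fold change was 0.52. In rescue against dKO 2 rose, 7 fell and 1 missed it (median -0.83), and in rescue against WT 1 rose, 2 fell and 7 missed it (median -0.12). Over all tested genes 33.7% rose and 31.0% fell in the first of these comparisons, 32.1% and 38.2% in the second, and 26.8% and 27.3% in the third. The list holds the 2 remaining LIM-homeobox genes of the mouse, and both rose. Only in dKO was Lmx1a above the filter level of 0.45 CPM, so it could enter the test by being high there. Lmx1a, a factor of midbrain dopamine neurons, went from 0.138, 0.0933 and 0.0516 CPM to 0.678, 0.811 and 1.04 CPM (3.18 ± 0.469, edgeR Benjamini-Hochberg adjusted p = 8.44e-05). Lmx1b, which patterns the dorsal limb and kidney, went from 1.1, 1.59 and 1.96 CPM to 7.46, 7.17 and 5.71 CPM (2.09 ± 0.219, edgeR Benjamini-Hochberg adjusted p = 5.13e-06). Unstranded reads cannot separate it from the lncRNA Gm39790 that lies within it and is not a row of the count files.

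In rescue Lmx1b was lower than in WT. Its libraries, at 0.229, 0.42 and 0.432 CPM, were all below every WT library, a log2 fold change of -2.18 ± 0.318 against WT and -4.27 ± 0.265 against dKO (edgeR Benjamini-Hochberg adjusted p = 0.000142 and 5.38e-08). Lmx1a fell to 0.372, 0.28 and 0.173 CPM and was called above WT with an edgeR Benjamini-Hochberg adjusted p = 0.0292. That call was lost with DESeq2 (0.0886), with the replicate block (0.0532), and without WT replicate 2 (0.0813), WT replicate 3 (0.105), rescue replicate 1 (0.145) or rescue replicate 2 (0.0516). Its start lay in a Suz12 peak of 4880 bp and that of Lmx1b in a peak of 7368 bp.

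The LIM-only genes divided. Lmo1 rose from 1.31, 1.73 and 1.75 CPM in WT to 9.64, 9.94 and 6.59 CPM in dKO and was at 1.4, 1.17 and 1.43 CPM in rescue (2.42 ± 0.203 over WT, edgeR Benjamini-Hochberg adjusted p = 7.86e-07). Lmo2, a blood stem cell factor, rose from 0.482, 0.14 and 0.155 to 2.41, 1.88 and 2.04 CPM (3.10 ± 0.382, edgeR Benjamini-Hochberg adjusted p = 1.92e-05) and fell to 0.4, 0.28 and 0.562 CPM in rescue. Outside dKO, Lmo2 was above the filter level of 0.45 CPM in WT replicate 1 and rescue replicate 3 alone. Like Lmx1a, it could therefore enter the test by being high in dKO. Lmo4 was at 6.51 ± 0.744, 6.06 ± 1.58 and 6.12 ± 0.425 CPM in WT, dKO and rescue (SD, n = 3) and was not called in any comparison. Lmo3 had 0 counts in all 9 libraries.

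Ldb1, the cofactor itself, was lower in dKO. It was at 172 to 178 CPM in WT, 91.7 to 106 in dKO and 168 to 176 in rescue, and fell by 0.81 in dKO on the log2 scale (SE 0.0616, edgeR Benjamini-Hochberg adjusted p = 3.65e-07). It rose again by 0.78 ± 0.0613 in rescue (edgeR Benjamini-Hochberg adjusted p = 3.79e-07) and was not called against WT (-0.02). Its relative Ldb2 had 1, 4 and 0 summed counts and was not tested.

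The single-stranded DNA-binding proteins that protect LDB1 from degradation changed by less than 1 on the log2 scale. Ssbp2 rose by 0.77 ± 0.199 and Ssbp3 by 0.26 ± 0.0671 in dKO (edgeR Benjamini-Hochberg adjusted p = 0.00481 and 0.0044), and each fell in rescue. Ssbp3 ended below WT, at 40.2 ± 3.07 against 56.7 ± 0.491 CPM (SD, n = 3). Ssbp4, at 51.2 ± 4.08 CPM in WT and 59.5 ± 11.5 in dKO (SD, n = 3), was not called there, but was called without dKO replicate 3 (edgeR Benjamini-Hochberg adjusted p = 0.0275).

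Ssbp4 was also called lower in rescue against dKO (edgeR Benjamini-Hochberg adjusted p = 0.0309), but not without dKO replicate 1 (0.131) or 2 (0.0741), rescue replicate 1 (0.0598) or 2 (0.121), or with only the 2 groups in the fit (0.0696). Rlim, the ubiquitin ligase that targets LDB1, was at 222 ± 8.36 CPM in WT and 161 ± 51 in dKO (SD, n = 3). Its call in dKO (-0.46, edgeR Benjamini-Hochberg adjusted p = 0.0298) did not hold without WT replicate 1 (0.0585) or 3 (0.0655), without dKO replicate 1 (0.0851) or 2 (0.106), with no filter (0.0733) and with only the 2 groups (0.0509). In rescue against dKO Rlim was called higher (0.45, edgeR Benjamini-Hochberg adjusted p = 0.0306), but not without dKO replicate 1 (0.0917) or 2 (0.111), rescue replicate 1 (0.0508) or 2 (0.0661), or with no filter (0.0732).

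**Figure D4:**
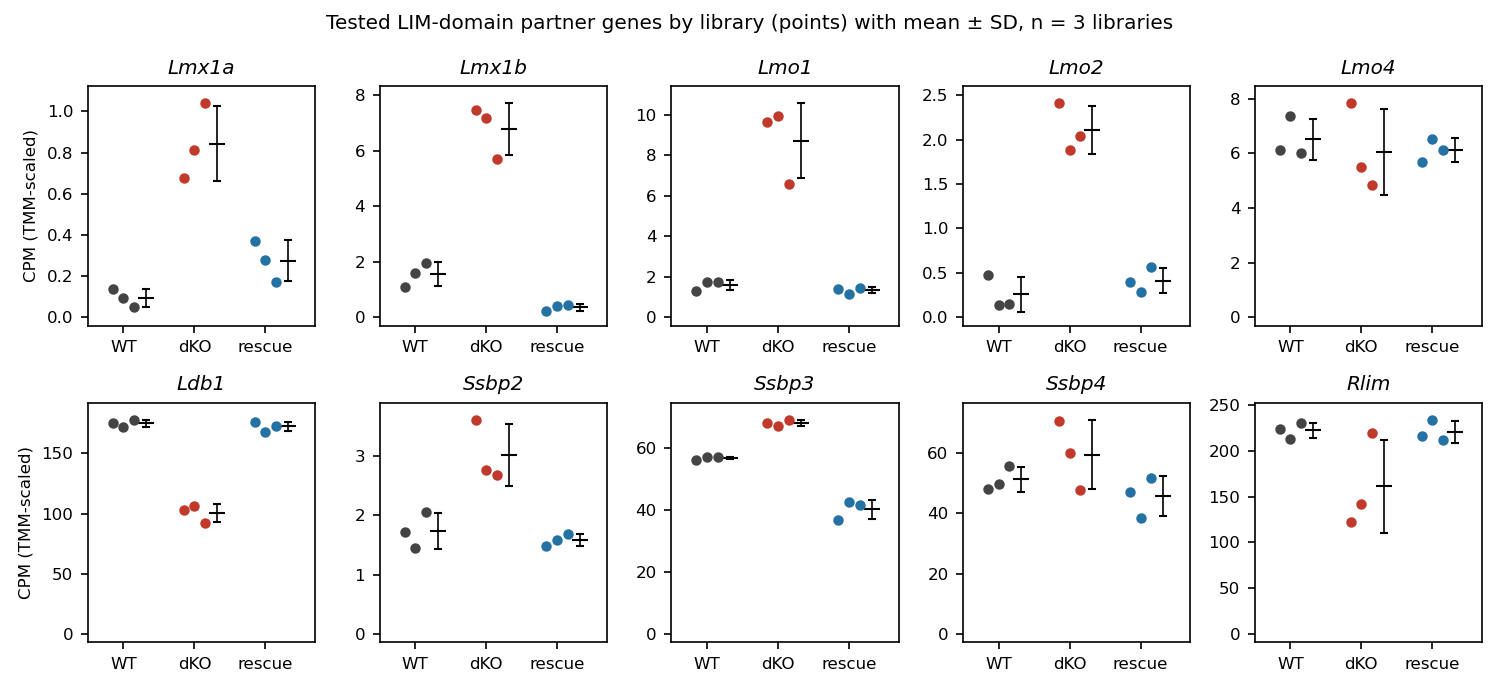
Level of the 10 tested LIM-homeobox relatives, LIM-only genes and LDB1-associated genes in CPM scaled by TMM, with 1 point per library, 3 libraries per group, and the mean ± SD beside each group. Lmx1a, Lmx1b, Lmo1 and Lmo2 peak in dKO, Ldb1 dips to 91.7 to 106 CPM there, and Lmx1b in rescue lies below all WT libraries.

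Genes that act beside or downstream of the members in development were read from lists by tissue, and most were too low to test. Of 9 second heart field genes 5 were tested, and 5 rose in dKO against WT with a median log2 fold change of 2.80. Tbx20, a heart transcription factor, rose by 3.65 ± 0.227 and Gata4 by 2.43 ± 0.191 (edgeR Benjamini-Hochberg adjusted p = 8.27e-08 and 4.74e-07). They fell again in rescue, to 3.82 and 3.22 CPM on average. Fgf10, a secreted growth factor of the second heart field, did not: it was at 5.78 CPM in WT, 18.2 in dKO and 30.3 in rescue on average, and rose further in rescue over dKO (0.73 ± 0.0886, edgeR Benjamini-Hochberg adjusted p = 1.4e-05).

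Of 7 motor neuron genes only Mnx1 was tested, and it rose by 1.17 ± 0.263 in dKO (edgeR Benjamini-Hochberg adjusted p = 0.00192) and fell by 1.46 in rescue. Of 13 forebrain and eye genes 5 were tested, and 4 rose and 1 fell, with a median of 2.93. The eye field genes Six3 and Rax rose from means of 0.0311 and 0.0696 CPM to 1.15 and 1.49 CPM (edgeR Benjamini-Hochberg adjusted p = 2.54e-05 and 4.93e-05). Hesx1, a forebrain and pituitary repressor that ES cells express, fell from 27.1 to 10.5 CPM on average (-1.34 ± 0.16, edgeR Benjamini-Hochberg adjusted p = 1.6e-05).

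Among pituitary genes, Pitx1 rose by 4.26 ± 0.177 (edgeR Benjamini-Hochberg adjusted p = 2.49e-09), whereas Pomc was at -0.40 ± 0.344 and was not called. Of 10 gonad and germ cell genes 2 were tested and rose, Sohlh2 by 1.33 ± 0.135 and the kidney gene Pax2 from 0.0172 to 0.757 CPM on average (edgeR Benjamini-Hochberg adjusted p = 5.51e-06 and 0.000129). All of these counts stand against the 33.7% of tested genes that rose, and genes near 0 in WT entered the test through dKO.

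Markers of other cell types moved with the groups as well, and their part in the results was not tested. Over all tested genes 33.7% rose and 31.0% fell in dKO against WT. Markers near 0 in WT could enter the test by being high in dKO. In dKO against WT 2 of the 4 tested cardiac markers rose and 0 fell. Their list of 7 summed to between 7.92 and 9.42 CPM in the WT libraries, 15.3 and 17.9 in dKO, and 9.21 and 10.4 in rescue, with Myh7 and Actc1 at 0 in WT. All 4 tested fibroblast markers rose, and their list of 7 summed to 4.69 to 6.27, 35.9 to 37.6 and 5.66 to 6.77 CPM. Most of that sum in dKO was Thy1, at 1.83 ± 0.746 CPM in WT and 29.9 ± 1.09 in dKO (SD, n = 3). Col3a1, Dcn and Postn were at 0 in WT, Col3a1 in dKO, and Dcn and Postn in rescue.

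The marker counts that follow stand against the same 33.7% of all tested genes that rose and 31.0% that fell. Of the 6 tested neural markers 3 rose, 2 fell and 1 missed the threshold in dKO, with a median log2 fold change of 0.53. Their list of 7 summed to 444 to 522, 211 to 252 and 419.7 to 490.1 CPM, most of which was Stmn2, at 442 ± 37.9 CPM in WT and lower in dKO, at 179 ± 23.9 (SD, n = 3). Map2, Elavl3 and Elavl4 rose (1.34, 1.90 and 1.61 on the log2 scale), and Dcx, which defines young neurons, had 0 counts in every group. Besides Stmn2, Tubb3 fell, from 31.1 to 19.9 CPM on average, and was at 93.5 CPM in rescue. All 5 tested primitive endoderm markers rose, and their list of 7 summed to 4.54 to 5.36, 28.3 to 58.1 and 6.83 to 8.21 CPM, with Afp at 0 in WT. The value of 58.1 was that of dKO replicate 3, and the other dKO libraries were at 28.3 and 30.3 CPM. Of the 6 trophoblast markers 3 rose, 1 fell and 2 missed the threshold in dKO (median 1.30). Cdx2 rose from 0.24 to 1.24, Elf5 from 0.0155 to 0.583 and Hand1 from 0.0729 to 3.5 CPM on average. Eomes fell from 14.9 to 12.7 CPM and was at 46 CPM in rescue. Krt7 was at 28.1, 31.9 and 8.67 CPM in WT, dKO and rescue and was not called in dKO against WT. The summed level of the 6 was 202 to 216, 200.5 to 215 and 141 to 148 CPM. It was mostly Tfap2c, at 167 CPM in WT and 159 in dKO, and none of the 6 was at 0 in any group.

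The genes whose pattern over the 9 libraries was nearest to each of the 4 most highly counted members were found by the distance between log2 CPM profiles centred on each gene's mean, among 11784 genes with a group mean of at least 2 CPM. Nearest to Isl1 was P4ha2, a collagen prolyl hydroxylase (distance 0.26, with means of 3.22, 23.2 and 5.94 CPM in WT, dKO and rescue), then Grin1 (0.37) and Padi2 (0.43). Nearest to Lhx2 were Galnt12 (0.39), Tnik (0.41) and Ddah1 (0.42). For Isl2 the nearest were Mgll (0.89), H60b (0.95) and Cbln1 (0.99). Isl2 had 0 to 2 counts per WT library, and counting error can widen its distance to any gene, so these distances do not show that it lacks a match. Lhx6 was nearest to Cdkl2 (0.56, means of 5.23, 12 and 11.4 CPM), Itpripl2 (0.61) and Prrt3 (0.66). All were picked for likeness over these 9 libraries, so levels in rescue near those in dKO follow from the choice. Prrt3 was at 3.78 CPM in dKO and 4.8 in rescue on average.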

How the data were processed

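Polyadenylated RNA was sequenced in 9 C57BL/6 libraries, 3 per group, and grouped by their labels. The authors deposited counts of reads per gene as whole numbers without normalization. Trimmomatic, STAR 2.4.0, HTSeq and the build mm10 are named in the submitters' processing notes. The sources used here give neither counting mode nor annotation, and the kit named in the labels, TruSeq RNA v2, does not mark strand. The authors deposited the Suz12 peaks as coordinates with no score or other values, and the sources used here give no peak caller, threshold or pooling. The other 61 ChIP samples were not analysed here.

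The 9 libraries were fitted together in edgeR 4.0.16 (R 4.3.3) with TMM, filterByExpr, glmQLFit (robust) and glmQLFTest, 1 coefficient for each group and 6 residual degrees of freedom, with no library dropped. A gene was called at a two-sided Benjamini-Hochberg adjusted p under 0.05 over 14145 tested genes, and "rose" or "fell" is used of called genes. Standard errors are the log2 fold change over the square root of the F statistic. CPM are scaled by TMM. Ratios of summed counts use effective library sizes and exact (Clopper-Pearson) intervals, except ratios against 0 counts, which have no interval. Transcript lengths were not used here, so levels are not compared between genes. The fit was tested on simulated data in which only genes above 1 CPM in WT were changed. That test does not cover changes in genes as low in WT as Lhx6, Lhx8 and Isl2.

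Gene positions came from RefSeq on GRCm38.p6: 22859 of 24222 symbols matched directly, 1230 by synonym and 133 not at all. Genes named are the 10 members, Ezh1 and Ezh2, the list of LIM partners, per further list up to 3 genes with the smallest adjusted p in dKO against WT and up to 1 that did not pass, and 3 nearest profiles for 4 members. The result of 1 listed gene, and the counts of its list, are not reported here. Members, lists and tests were chosen with earlier results of these data known. Replicates differed beyond sampling noise (chi-square per degree of freedom 2.21 to 23.9). The labels do not say whether replicates are separate cultures, so p-values measure the spread between these libraries, which may be technical.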

Additional observations from a re-analysis of the deposited data

How the results depend on the processing

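The counts of called members moved by at most 1.5 times under all alternatives: RLE scaling, TMM without chromosomes 3, 9 and 14, no filter, a mean of at least 2 CPM, DESeq2 1.42.0, limma-voom 3.58.1, the 2 groups alone, the replicate block, and each library left out. In dKO against WT 5 rose, but 7 with no filter and 4 at 2 CPM, where Lhx8 is not tested. In rescue against dKO 4 fell, but 5 with no filter and 3 at 2 CPM. In rescue against WT 3 rose, with 2 to 4 when a library was left out, 2 with the 2 groups alone, where Isl2 is not tested, and 4 with no filter or limma-voom. No member was called in the opposite direction under any of these. Leaving out a library gave 5 to 5 higher in dKO against WT and 4 to 4 lower in rescue against dKO.

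Same-numbered libraries did not deviate together in every pair (WT and rescue r = -0.112, 0.115 and 0.201), so the numbers were not taken as pairs. With the replicate block 5, 4 and 3 members were called in the 3 comparisons, and the call of Lmx1a in rescue against WT was lost. All 10 members kept a Suz12 peak with a longer overlap or a window of 5 kb, and 8 with peaks wider than the median, where Lhx3 and Lhx9 were lost. In genes that were not called, the sign turned when single libraries were left out. For Lmo4 in rescue against dKO the values so obtained ran from -0.09 (without dKO replicate 3; -0.01 without dKO replicate 2) to 0.24. In rescue against WT they ran from -0.15 to 0.01 for Lmo4, -0.27 to 0.01 for Ssbp2, -0.06 to 0.02 for Rlim (0.01 with RLE scaling and 0.01 with DESeq2), -0.12 to 3.30 for Six3, -1.45 to 0.30 for Rax and -0.03 to 0.52 for Pomc. In rescue against WT Tbx20, Gata4 and Hesx1 passed without dKO replicate 3 or with the 2 groups alone, and Lmo2 and Pitx1 passed without WT replicate 1. The cause was not tested. Lhx1, Lhx3, Lhx4, Lhx5 and Lhx9 were too low for the test at this depth.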

Other observations

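The lncRNA C130021I20Rik, chosen after its values were seen, begins at the upstream end of Lmx1b (chromosome 2, 33641193 to 33645663) and overlaps it by 16 bp. It lies under the Suz12 peak of 7368 bp that also covers the start of Lmx1b. The WT libraries held 5, 5 and 1 of its counts, the dKO libraries 54, 95 and 87, and the rescue libraries 1, 2 and 0. It rose by 4.23 ± 0.377 in dKO against WT and fell by 6.47 in rescue against dKO, with edgeR Benjamini-Hochberg adjusted p = 1.3e-06 and 1.64e-07. Like Lmx1b it was called below WT in rescue (edgeR Benjamini-Hochberg adjusted p = 0.0368), with every rescue library at 2 counts or fewer. Reads in the overlap cannot be assigned to a strand.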
